A study of Mus musculus with 6 samples.

Results

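The enzymes that remove superoxide, peroxides and reactive electrophiles were examined in the carotid bodies of 2 inbred mouse strains: superoxide dismutases, catalase, glutathione peroxidases, peroxiredoxins, thioredoxins with their reductases, the enzymes that make and reduce glutathione, and the glutathione S-transferases. The members are every probe set that GEO's platform annotation gives to a single gene of these families, which makes 81 of 45101 probe sets and 46 of 18194 genes. The carotid body, a small organ in the neck beside the carotid artery, monitors blood oxygen through its type I (glomus) cells. Each of 6 arrays was hybridised with total RNA pooled from the carotid bodies of untreated male mice aged 28 days, either A/J (3 arrays, pools of 20, 21 and 19 mice) or DBA/2J (3 arrays, pools of 19, 18 and 19 mice). A strain is an inbred genotype, so a strain comparison takes in every allele by which the strains differ, and a pool shows no spread between single mice. Prdx1, Prdx5, Prdx6 and Gsta1 were not analysed here.

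Superoxide is turned into hydrogen peroxide by superoxide dismutases. Catalase breaks down the peroxide. The glutathione peroxidases and the peroxiredoxins reduce it with electrons from glutathione or from thioredoxin, which NADPH-dependent reductases restore. Glutathione S-transferases couple glutathione to electrophiles such as lipid aldehydes. Many of these genes respond to the transcription factor NRF2, which binds the antioxidant response element. In the carotid body, reactive oxygen species from mitochondria and oxidases have long been studied as signals of oxygen level, and the strains were compared because their carotid bodies and their breathing response to low oxygen differ.

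Values are the authors' array signals on a linear intensity scale. Every log2 difference is DBA/2J minus A/J on log2(signal + 16), a scale that understates differences of dim probe sets, and a test is limma's moderated test with p adjusted by the Benjamini-Hochberg method over the 27022 probe sets bright enough to be tested. An adjusted p under 0.05 is called a pass. Of the 81 member probe sets, 64 were tested and 17 were too dim, and 39 of the 46 genes had at least 1 tested probe set. The 3 arrays per strain limit the precision of every value. Whether the 3 pools of a strain were collected apart in time is not stated, so p-values measure the spread between pools. Because the tissue is a mixture, fewer cells of a type and less RNA per cell cannot be told apart.

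No member passed the test in either direction. The count was 0 of 64 probe sets, beside 3.27% of all probe sets tested, made up of 1.86% with higher and 1.41% with lower signal in DBA/2J. At an unadjusted limma p under 0.05 there were 9 of the 64, where 15.3% of all probe sets met that limit. Of these 9, 8 were lower and 1 was higher in DBA/2J, beside 7.46% and 7.89% of all probe sets. The 3 DBA/2J arrays lay wholly below the 3 A/J arrays for 10 member probe sets and wholly above them for 2, where 9.54% of all probe sets lay below and 11.5% above. Over both directions this was 18.8% of members against 21.1% of all probe sets, so the members were no more often free of overlap than the array as a whole. The smallest adjusted p of any member was 0.0923, for mitochondrial superoxide dismutase, Sod2. The series itself names a rule of at least 6 of 9 array pairs, 1.5-fold and a p under 0.05. With fold taken from the deposited signals and the unadjusted limma p, 2 probe sets of Sod2 and the probe set of Mgst2 met it as lower (4.86% of all probe sets did) and the probe set of Gstt2 as higher (5.23%).

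**Figure D1:**
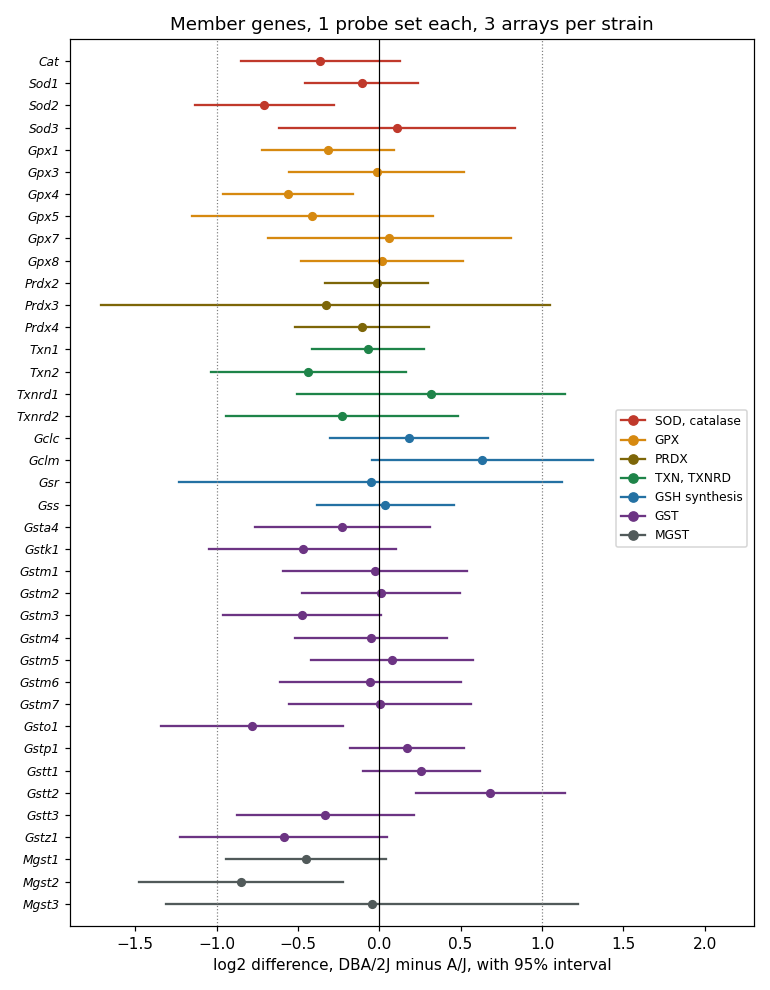
Log2 difference (DBA/2J minus A/J, horizontal axis) of the 39 tested member genes, each by its probe set with the highest mean; points are estimates from 3 arrays per strain, bars are 95% intervals, dotted lines mark a log2 difference of 1 either way, and colours are enzyme families. Sod2 (-0.71), Gpx4 (-0.56), Gsto1 (-0.78) and Mgst2 (-0.85) have intervals below 0 and Gstt2 (0.68) above 0, and no gene passed after adjustment.

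With all 6 arrays weighted equally, the estimated differences stayed within 2-fold. No tested member probe set had an absolute log2 difference over 1, compared with 4.76% of all probe sets tested. Members ran from -0.85 (Mgst2) to 0.68 (Gstt2). An absolute difference over 0.5 was seen in 13 of the 64. Between -0.75 and -0.5 lay 12.5% of members and 5.6% of all probe sets, and between 0.5 and 0.75 lay 4.69% and 5.44%. The median over the 64 was -0.15, beside 0.01 over all probe sets, and 44 of the 64 had a difference below 0, 68.8% against 48.6%. Probe sets of a gene share their target, and all members share the 6 arrays, so these 64 values are not independent of each other. With 1 probe set per gene the median of the 39 genes was -0.05, with 26 below 0 and 13 above, beside a median of 0.03 over 13006 genes, of which 47% were below 0. On their brightest probe sets, some members were bounded closely. For 12 of the 39 genes the 95% interval of the difference lay inside 1.5-fold in both directions, and for 26 it lay inside 2-fold. Of all 13006 genes, 2488 and 9340 had such intervals. The 12 were Sod1, Prdx2, Prdx4, Txn1, Gpx3, Gpx8, Gss, Gstp1, Gstm2, Gstm4, Gstm5 and Gstm7. Of these, Sod1, Prdx2, Prdx4, Txn1, Gss and Gstm7 each had another tested probe set whose interval went past 1.5-fold. That of Txn1 ran from -1.08 to -0.13. By probe set the counts were 15 and 42 of 64, beside 16% and 70.1% of all probe sets tested.

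**Figure D2:**
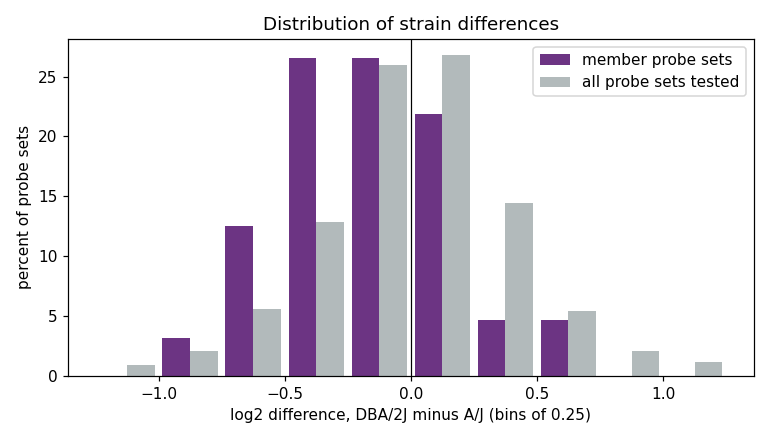
Percent of probe sets (vertical axis) in bins of 0.25 of the log2 difference, DBA/2J minus A/J (horizontal axis), for the 64 member probe sets and for all 27022 tested. Members gather between -0.75 and 0.25, with a median of -0.15, and none lies beyond 1 in either direction; 2.74% of all probe sets lie outside the range drawn.

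Sod2, the manganese superoxide dismutase of the mitochondrial matrix, came nearest to a pass. Its brightest probe set read 13037.2, 9180.9 and 10484.9 on A/J arrays 1 to 3 and 6218.7, 8004.5 and 5781.2 on DBA/2J arrays 1 to 3. All 3 DBA/2J arrays were below all 3 A/J arrays, with the highest DBA/2J value on array 2 and the lowest A/J value on array 2. The means were 10901 ± 1962 and 6668 ± 1178 (SD, n = 3), a log2 difference of -0.71 (SE 0.19, 95% interval -1.13 to -0.28, limma adjusted p = 0.0923). A dimmer probe set read 2197.5, 1485.9 and 1958.4 in A/J and 1000.1, 1077.6 and 1226.2 in DBA/2J, again without overlap, with a difference of -0.75 (adjusted p = 0.0976). On the probe set second in brightness the strains overlapped, since A/J array 2 (4409.2) lay below DBA/2J array 2 (4766.8), and the difference was -0.74 (adjusted p = 0.177). The dimmest, at 118.0 to 195.3 over all arrays, gave 0.10. Without DBA/2J array 2, the difference of the brightest probe set was -0.85 and passed (adjusted p = 0.0353). That is the DBA/2J array with the highest value of this probe set. Leaving out any other array gave -0.82 to -0.57, with adjusted p between 0.102 and 0.302.

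The copper and zinc dismutase of the cytosol, Sod1, was nearly level. Its brightest probe set read 12832.5, 13993.5 and 13376.1 in A/J and 11824.4, 14845.5 and 10947.4 in DBA/2J, and the DBA/2J values spanned those of A/J. The difference was -0.11 with a 95% interval of -0.45 to 0.24, which leaves out a change of 1.5-fold, and the 3 other tested probe sets gave -0.05, -0.05 and 0.15. Sod3, the extracellular dismutase, had 536.3, 524.6 and 875.0 in A/J and 454.0, 661.3 and 1035.1 in DBA/2J, an overlapping spread with a difference of 0.11 (interval -0.62 to 0.84). Catalase, an enzyme of peroxisomes, read 4727.6, 5205.4 and 4135.3 in A/J and 3217.6, 3012.7 and 4925.0 in DBA/2J for gene Cat. DBA/2J array 3 lay within the A/J range while the other DBA/2J arrays lay below it, and the difference was -0.36 (interval -0.85 to 0.13). That each of the 3 dismutases lies in a different compartment is background. Whether the difference of Sod2 is itself unlike that of Sod1 was not tested.

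**Figure D3:**
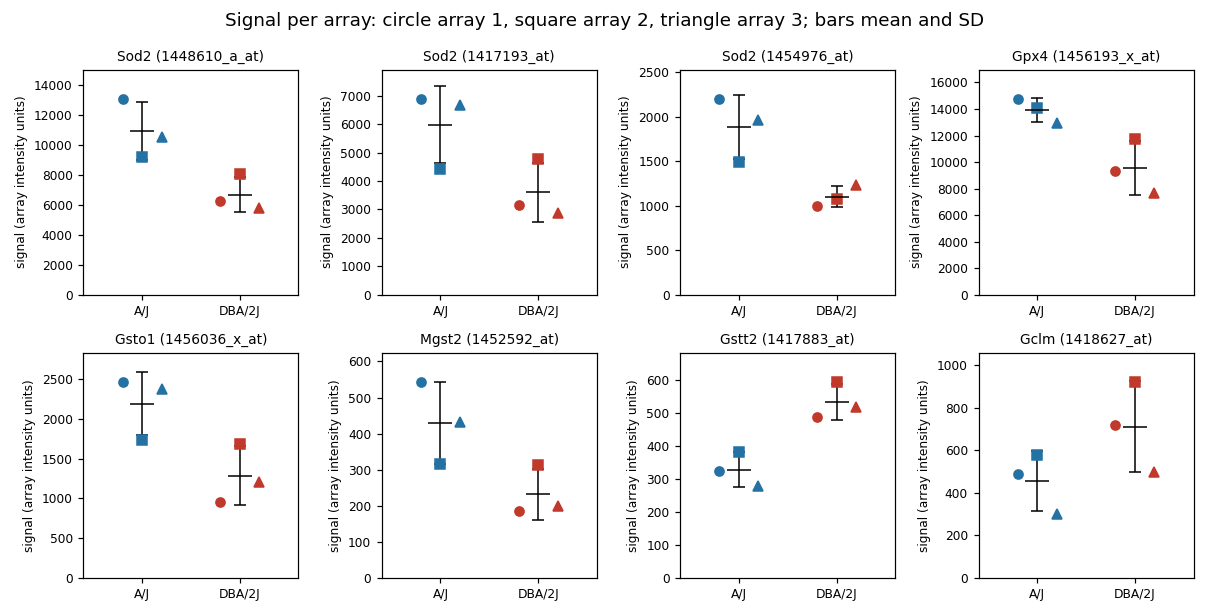
Signal (array intensity units, from 0) on each array for 8 probe sets of Sod2, Gpx4, Gsto1, Mgst2, Gstt2 and Gclm; symbols mark arrays 1, 2 and 3, and bars show the mean and SD of the 3 arrays of a strain. The 3 A/J values of the first Sod2 panel (9180.9 to 13037.2) sit above the 3 DBA/2J values (5781.2 to 8004.5), and for Mgst2 the lowest A/J and highest DBA/2J values nearly touch (314.7 and 313.6).

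Among the glutathione peroxidases, Gpx4 had the largest difference. This selenoenzyme reduces lipid hydroperoxides within membranes. Its brighter probe set read 14755.0, 14078.1 and 12923.6 in A/J and 9301.8, 11706.8 and 7631.6 in DBA/2J. The strains did not overlap, and DBA/2J array 2 was again the highest of its strain. The means were 13919 ± 926 and 9547 ± 2049 (SD, n = 3), with a log2 difference of -0.56 (interval -0.96 to -0.16, limma adjusted p = 0.151). The other Gpx4 probe set gave -0.41, also with no overlap. Without DBA/2J array 2 the first stood at -0.72 and passed (adjusted p = 0.0383), while leaving out any other array gave -0.62 to -0.41 and adjusted p between 0.253 and 0.381. Gpx1, the main cytosolic peroxidase, read 6332.3, 7987.4 and 7728.5 in A/J and 6462.4, 6477.5 and 4815.7 in DBA/2J, with overlap and a difference of -0.32. Gpx3, the plasma form, and Gpx8, of the endoplasmic reticulum, were at -0.02 and 0.02. Gpx7, also of the endoplasmic reticulum, had 0.06 with a wide interval of -0.69 to 0.81. Gpx5, known from the epididymis, had dim signals of 66.1 to 183.1 over the 6 arrays and a difference of -0.41. Gpx2 and Gpx6 were too dim to be tested. In all, 4 of the 6 tested genes of this family were below 0 and 0 passed.

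Of the 3 peroxiredoxins, Prdx2 and Prdx4 were close to level on their brightest probe sets and Prdx3 was poorly measured. Prdx2, an abundant cytosolic peroxiredoxin, read 11703.5, 10285.6 and 10520.4 in A/J and 11571.2, 10769.4 and 9854.3 in DBA/2J, a difference of -0.01 with an interval of -0.33 to 0.30. A dimmer Prdx2 probe set gave 0.61 (interval -0.03 to 1.26). The estimates of the Prdx2 probe sets differ while their intervals overlap, and the gap was not tested. Prdx4, of the secretory pathway, had 4555.1, 6585.4 and 5328.3 in A/J and 5592.7, 4976.9 and 4584.9 in DBA/2J, a difference of -0.11 (interval -0.52 to 0.30, limma adjusted p = 0.853). Prdx3, the mitochondrial form, had 1862.6, 1856.3 and 982.0 in A/J and 1812.2, 368.7 and 2493.8 in DBA/2J. Here DBA/2J array 2 was far below every other array, a 6.52-fold range within the strain on the log2(signal + 16) scale. The difference of -0.33 had an interval from -1.71 to 1.05, which bounds Prdx3 to neither side.

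In the thioredoxin system, the cytosolic Txn1 was level on its bright probe set, with 10467.4, 11215.6 and 11127.1 in A/J and 10369.4, 12096.1 and 9006.8 in DBA/2J (difference -0.07, interval -0.41 to 0.28). Its dimmer probe set read 1109.5, 1115.3 and 899.4 in A/J and 616.9, 845.2 and 593.4 in DBA/2J, with no overlap and a difference of -0.60 (limma adjusted p = 0.197). The estimates of the Txn1 probe sets therefore differ, although their intervals overlap, and the gap was not tested. Txn2, the mitochondrial thioredoxin, gave -0.44, -0.51 and -0.56 on its 3 tested probe sets. The brightest read 3279.2, 2114.8 and 2907.8 in A/J and 2671.9, 1415.4 and 2132.4 in DBA/2J, which overlap (interval -1.04 to 0.16, adjusted p = 0.510). DBA/2J array 2 was the lowest on each of the 3, and without it the brightest was at -0.19 (adjusted p = 0.718). The selenoenzymes that reduce thioredoxin were dim: Txnrd1, of the cytosol, had 0.32 and -0.33 on different probe sets, and Txnrd2, of mitochondria, had -0.23 and -0.48. No member of this family passed.

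Glutathione itself is made by glutamate-cysteine ligase, of which Gclc is the catalytic and Gclm the modifier subunit, and by the synthetase Gss, and Gsr reduces the oxidised form. Gclm had the largest difference of the 4. It read 486.5, 577.5 and 299.7 in A/J and 718.4, 919.6 and 495.7 in DBA/2J, and the strains overlapped because DBA/2J array 3 lay below A/J array 2. The difference was 0.63 (interval -0.05 to 1.31, limma adjusted p = 0.371), and a second Gclm probe set gave 0.19. Without A/J array 3 the first was at 0.37. Gclc gave 0.18 and 0.26 on its 2 probe sets. Gss was at 0.04 with an interval of -0.39 to 0.46, and its other probe set was at -0.36. Gsr had 197.2, 791.0 and 289.7 in A/J and 372.9, 184.3 and 587.6 in DBA/2J, a difference of -0.05 with an interval of -1.23 to 1.12. The spread of this Gsr probe set within each strain exceeded the difference between the strains.

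**Figure D4:**
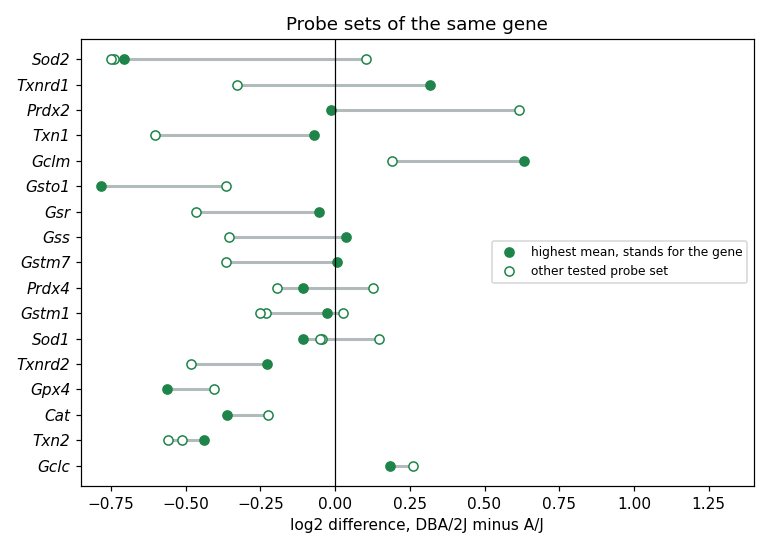
Log2 difference (DBA/2J minus A/J, horizontal axis) of each tested probe set of the 17 member genes with at least 2; filled points are the probe sets with the highest mean and open points the others. The probe sets of Txn2 lie between -0.56 and -0.44, while those of Sod2 span -0.75 to 0.10 and those of Prdx2 span -0.01 to 0.61.

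Glutathione S-transferases showed differences in both directions, none of which passed. Gsto1, an omega-class transferase with thioltransferase activity, read 2462.9, 1734.6 and 2372.3 in A/J and 955.5, 1688.9 and 1209.9 in DBA/2J on its brighter probe set. The strains did not overlap, although A/J array 2 and DBA/2J array 2 nearly met. The means were 2190 ± 397 and 1285 ± 372 (SD, n = 3), with a difference of -0.78 (SE 0.25, interval -1.34 to -0.22, limma adjusted p = 0.153). The other Gsto1 probe set gave -0.37 with overlap. Without DBA/2J array 2 the first was at -0.998 and passed (adjusted p = 0.0391). Leaving out any other array gave -0.94 to -0.59 and adjusted p between 0.136 and 0.454, and with A/J array 2 as the only A/J array it was at -0.47.

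Gstt2, a theta-class transferase, had the largest difference towards DBA/2J among the 64 tested probe sets. It read 325.3, 382.2 and 277.5 in A/J and 489.0, 593.5 and 519.0 in DBA/2J. Every DBA/2J array exceeded every A/J array, with means of 328 ± 52.4 and 534 ± 53.8 (SD, n = 3) and a difference of 0.68 (SE 0.20, interval 0.22 to 1.14, adjusted p = 0.130). Leaving out each array in turn gave 0.57 to 0.79, and none of these fits passed. Its neighbours in the RefSeq gene order are theta-class genes as well: Gstt3, Gstt1, Gstt4 and Gstt2 follow each other with no protein-coding gene between them. Gstt1 read 4788.3, 4165.5 and 5276.3 in A/J and 6078.7, 5533.5 and 5362.5 in DBA/2J, without overlap and with a difference of 0.26 (interval -0.10 to 0.62). Gstt3 was at -0.33 with overlap, and Gstt4 was too dim to be tested. Adjacent genes of the cluster thus had differences of opposite sign.

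The mu class, 7 genes that also adjoin each other in the RefSeq order, had small differences on most probe sets. Gstm1 had differences from -0.25 to 0.03 on 4 probe sets, and A/J array 2 was its lowest array on each of them. Gstm2, Gstm4, Gstm5 and Gstm6 lay between -0.05 and 0.08. Gstm7 was at 0.00 on one probe set and at -0.36 on another of about the same brightness, with overlapping intervals. Gstm3 read 451.3, 416.7 and 471.7 in A/J and 250.4, 325.5 and 386.1 in DBA/2J, with no overlap and a difference of -0.48 (interval -0.96 to 0.01, limma adjusted p = 0.336). The suffix s_at of its probe set, like x_at on others, marks probes that can match more than a single transcript, and transferases of a class are alike in sequence, so signals within the mu cluster may be shared between genes. Gstp1, the pi-class enzyme, read 5935.1, 6452.2 and 7439.9 in A/J and 7998.0, 7346.5 and 6898.5 in DBA/2J, with overlap and a difference of 0.17 (interval -0.18 to 0.52, adjusted p = 0.694), or 0.09 without A/J array 1 and 0.26 without A/J array 3. Gsta4, which conjugates the lipid aldehyde 4-hydroxynonenal, read 2532.1, 2308.5 and 2209.6 in A/J and 2087.7, 2694.8 and 1422.3 in DBA/2J (difference -0.23, interval -0.77 to 0.31, adjusted p = 0.736).

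Gstk1, the mitochondrial and peroxisomal kappa enzyme, read 1990.2, 1442.3 and 2026.7 in A/J and 1448.4, 1627.0 and 916.1 in DBA/2J (difference -0.47, interval -1.05 to 0.10, limma adjusted p = 0.442), and without DBA/2J array 3 the difference was -0.23. Gstz1, the zeta enzyme of tyrosine breakdown, read 1080.2, 494.0 and 635.4 in A/J and 412.2, 484.5 and 484.7 in DBA/2J. The strains did not overlap, but A/J array 1 stood apart from the other A/J arrays and A/J array 2 was close to DBA/2J, and the difference was -0.59 (interval -1.22 to 0.05, adjusted p = 0.375). Without A/J array 1, Gstz1 was at -0.28 (adjusted p = 0.719), and against A/J array 2 alone it was at -0.10. The size of the Gstz1 difference thus rests largely on A/J array 1.

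The microsomal transferases are membrane proteins of a separate family. Mgst2, which also conjugates leukotriene A4, read 542.4, 314.7 and 433.4 in A/J and 184.3, 313.6 and 197.8 in DBA/2J. The means were 430 ± 114 and 232 ± 71.1 (SD, n = 3), a difference of -0.85 (SE 0.28, interval -1.48 to -0.23, limma adjusted p = 0.166), the most negative of the 64 tested probe sets. Leaving out each array in turn gave -1.08 (without DBA/2J array 2, limma adjusted p = 0.0531) to -0.67 (without A/J array 1), and none of these fits passed. With A/J array 2 as the only A/J array, Mgst2 was at -0.45. Mgst1, a peroxidase and transferase of the endoplasmic reticulum and mitochondria, read 12390.0, 9655.0 and 10445.6 in A/J and 7055.9, 10951.5 and 6309.3 in DBA/2J. DBA/2J array 2 lay within the A/J range and the other DBA/2J arrays below it (difference -0.45, interval -0.95 to 0.04). Mgst3 had 717.3, 1229.7 and 542.6 in A/J and 1457.2, 269.1 and 1095.7 in DBA/2J, with DBA/2J array 2 again the lowest of all, and a difference of -0.04 with an interval of -1.31 to 1.22.

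**Figure D5:**
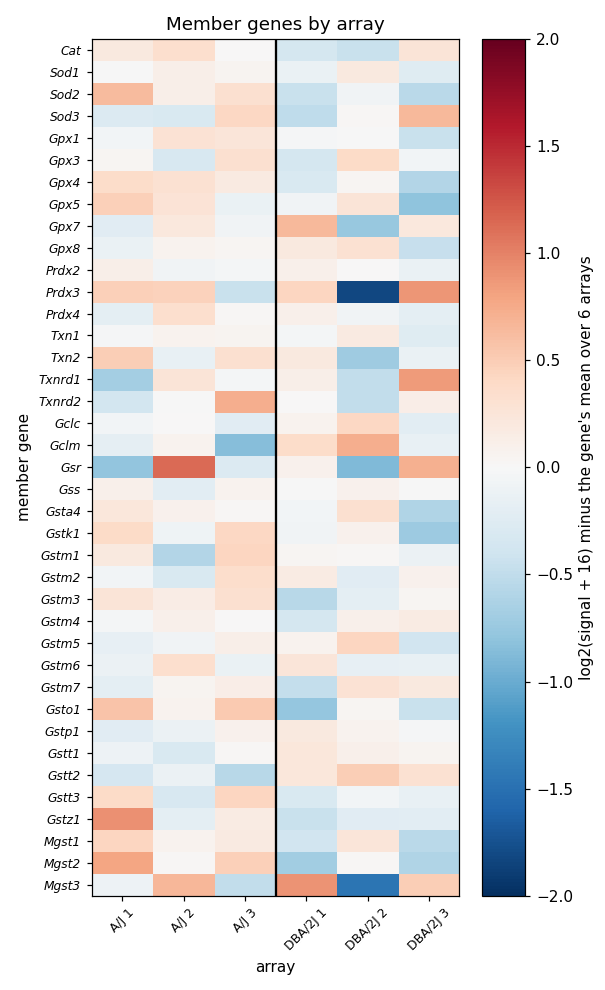
Log2(signal + 16) of the 39 tested member genes (rows) on the 6 arrays (columns), each minus the gene's mean over the arrays; red is above and blue below that mean. Prdx3 and Mgst3 are lowest on DBA/2J array 2, and Gstz1, Mgst2 and Sod2 are highest on A/J array 1.

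The arrays of a strain differed among themselves in members. A range over 2-fold within at least 1 strain was seen in 17 of the 64 tested probe sets, 26.6%, beside 21.6% of all probe sets. Within DBA/2J it was seen in 11 of the 64, beside 14.9% of all probe sets. In 9 of these 11, array 2 was either the highest or the lowest. With 3 arrays, each array is the highest or lowest for many probe sets by construction. DBA/2J array 2 was the highest of its strain for 33 of the 64 probe sets and DBA/2J array 3 the lowest for 31, while A/J array 2 was the lowest of its strain for 32. How often each array was the highest or lowest over all probe sets was not counted. Whether these counts are particular to the members is therefore unknown. Of 17 genes with at least 2 tested probe sets, 9 had all of them on 1 side of 0, 52.9% beside 52.5% of all such genes.

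Marker genes of other cells differed between the pools beside these values. All 13 tested skeletal muscle markers fell in DBA/2J, of 14 listed, and their summed signal was 0.165% to 0.395% of an A/J array and 0.00444% to 0.00978% of a DBA/2J array. Brown and white fat markers made up 0.171% to 0.242% of the A/J arrays and 0.0875% to 0.147% of the DBA/2J arrays, and 2 of 9 tested fell (Ucp1 and Fabp4). On the brightest Sod2 probe set, array 2 of each strain had the value nearest to the other strain. On the dimmer Sod2 probe set without overlap, these were A/J array 2 and DBA/2J array 3. On the brighter Gpx4 probe set they were A/J array 3 and DBA/2J array 2. On the dimmer Gpx4, the brighter Gsto1 and the Mgst2 probe sets they were array 2 of each strain. A/J array 2 had the least muscle and fat signal of its strain, and DBA/2J array 2 the most of its own. Erythroid markers had 0.0157% to 0.0178% and 0.00538% to 0.00823%, with 2 of 4 tested lower, and type I cell markers had 0.160% to 0.182% and 0.289% to 0.306%, with 6 of 14 tested higher and 0 lower. Mast cell markers had 0.0162% to 0.0171% and 0.0252% to 0.0365%, with 1 of 9 tested higher and 1 lower. Type II and Schwann cell markers had 0.116% to 0.154% and 0.0824% to 0.104%, with 1 of 7 tested lower. Salivary, thyroid and parathyroid markers had 0.0155% to 0.0265% and 0.00488% to 0.00857%, with 1 of 4 tested higher and 1 lower. None passed of 8 macrophage, 8 endothelial and 9 fibroblast and smooth muscle markers tested, of which 3, 1 and 3 had an unadjusted limma p under 0.05. No summed marker signal was at 0. The white fat marker Lep was dim on all arrays, at 14.5 to 26.6. The part of these cells in the values of Sod2, Gpx4, Gsto1 and Mgst2 was not tested.

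Grouped by where the enzymes work, a grouping made after the values had been seen, the 5 tested genes of mitochondria (Sod2, Prdx3, Txn2, Txnrd2 and Gstk1) all had differences below 0, with a median of -0.44 and a range of -0.71 to -0.23. By probe set 10 of 11 were below 0, the exception being the dimmest of Sod2. The 3 tested membrane genes (Mgst1, Mgst2 and Mgst3) were also all below 0, with a median of -0.45, and the peroxisomal Cat was at -0.36. The 24 tested cytosolic genes had a median of -0.04, with 14 below 0 and 10 above. The 3 tested genes of the endoplasmic reticulum lay between -0.11 and 0.06, and the 3 secreted ones between -0.41 and 0.11. These are descriptions of the same 6 arrays, with no test of the difference between compartments.

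The promoters of members were read for the core of the antioxidant response element, TGACNNNGC, on both strands, because NRF2 acts on many of these genes through it. RefSeq windows (GRCm38.p6) from 250 bases before to 50 bases after the transcription start were found for 41 of the 46 genes. The core was present in 7 of the 41 genes, 17.1%, beside 14% of all 27025 genes with a window. Some genes have several windows. By window it was present in 12.7% of the 55 member windows and 12.4% of all 32851. The tested genes with a match had a median difference of 0.04 (6 genes, 4 of them above 0). The 28 tested genes with a window but no match had a median of -0.17 (22 below 0). This split leaves out tested genes without a window: Gstt2 (0.68), Gclc (0.18), Sod3 (0.11), Gsr (-0.05) and Gsta4 (-0.23). Gstm7 and Txnrd1, counted above 0, and Sod1, counted below, each had another tested probe set on the other side. Whether genes with and without the core differ was not tested. A match is a run of letters only, and a window without it says nothing of NRF2 at that gene. Shown here are Gclm, Mgst1 and Sod1, which hold the core, and Sod2, the member nearest to a pass, which does not; capitals mark the core, here on the opposite strand, and the sequence runs 5′ to 3′ along the gene.
Gclm, chr3:122245307-122245606, plus strand: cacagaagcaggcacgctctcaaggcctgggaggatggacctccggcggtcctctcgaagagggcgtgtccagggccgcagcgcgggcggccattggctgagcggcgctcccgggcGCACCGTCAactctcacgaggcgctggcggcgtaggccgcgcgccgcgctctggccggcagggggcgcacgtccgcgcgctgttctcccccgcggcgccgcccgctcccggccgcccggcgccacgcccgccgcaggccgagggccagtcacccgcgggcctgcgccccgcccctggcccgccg
Mgst1, chr6:138140277-138140576, plus strand: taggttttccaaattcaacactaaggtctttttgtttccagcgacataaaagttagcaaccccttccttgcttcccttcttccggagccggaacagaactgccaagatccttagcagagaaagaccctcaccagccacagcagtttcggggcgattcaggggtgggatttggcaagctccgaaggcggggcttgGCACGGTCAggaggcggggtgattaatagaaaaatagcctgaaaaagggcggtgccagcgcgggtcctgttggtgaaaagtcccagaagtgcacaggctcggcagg
Sod1, chr16:90220512-90220811, plus strand: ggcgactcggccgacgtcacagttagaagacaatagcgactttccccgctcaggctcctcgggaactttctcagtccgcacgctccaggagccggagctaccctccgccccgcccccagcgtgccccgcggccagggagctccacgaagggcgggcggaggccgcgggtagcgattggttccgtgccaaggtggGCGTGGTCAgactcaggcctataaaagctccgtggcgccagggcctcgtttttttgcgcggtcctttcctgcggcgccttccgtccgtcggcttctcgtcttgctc
Sod2, chr17:13007589-13007888, plus strand: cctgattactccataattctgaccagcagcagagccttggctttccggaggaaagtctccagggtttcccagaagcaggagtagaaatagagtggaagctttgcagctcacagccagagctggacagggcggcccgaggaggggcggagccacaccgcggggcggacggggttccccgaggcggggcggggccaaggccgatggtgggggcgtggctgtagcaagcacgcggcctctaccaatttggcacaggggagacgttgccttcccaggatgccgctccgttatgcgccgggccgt
In Gclm the matched core starts 134 bases before the start, and in Mgst1 and Sod1 it starts 56 bases before it. These 3 genes had log2 differences of 0.63, -0.45 and -0.11.

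Other genes of the same chemistry were taken from 6 lists of 113 genes, of which 93 were tested. Of these, 1 rose, 4 fell and 88 did not pass, which is 5.38% beside 3.77% of all 13006 genes (2.17% higher and 1.6% lower), and the median difference was -0.13. Without A/J array 1 none of the 5 passed, and without DBA/2J array 2 there were 2 higher and 5 lower. In the list of thioredoxin-like, glutaredoxin and repair proteins (24 tested), 4 methionine sulfoxide reductases were tested, of which 1 rose and 1 fell. Msrb2, the mitochondrial form, rose, with 758.6, 530.2 and 724.6 in A/J and 1478.2, 1154.4 and 1787.7 in DBA/2J (difference 1.11, SE 0.23, limma adjusted p = 0.0357). Msrb1, a selenoprotein of the cytosol and nucleus, fell, with 2339.5, 2115.8 and 2370.3 in A/J and 1375.8, 1227.5 and 1440.8 in DBA/2J (difference -0.75, adjusted p = 0.0499). Neither gene overlapped between strains. The other reductases of this kind, Msra (-0.22, adjusted p = 0.763) and Msrb3 (-0.16, adjusted p = 0.851), did not pass.

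Of 18 tested selenoproteins and genes of selenoprotein synthesis, 2 fell and 0 rose. Sephs2, which makes the selenium donor for selenocysteine, read 1496.9, 1448.0 and 1143.8 in A/J and 512.4, 718.9 and 624.0 in DBA/2J (difference -1.12, limma adjusted p = 0.0208). Its 2 other probe sets gave -0.55 and -0.33. Dio2, the deiodinase that activates thyroid hormone in brown fat and elsewhere, read 1979.7, 1777.0 and 1452.3 in A/J and 805.5, 454.9 and 653.0 in DBA/2J (difference -1.45, adjusted p = 0.0139), with other probe sets at -0.85 and -0.29. In the list of glutathione turnover and cysteine supply (11 tested), Glo1 fell and 0 rose. Glo1, the glyoxalase that uses glutathione to clear methylglyoxal, read 10992.2, 10749.1 and 9221.1 in A/J and 5840.0, 6010.5 and 5596.3 in DBA/2J (difference -0.82, adjusted p = 0.0170), and its 3 other probe sets ranged from -0.82 to 0.02.

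No gene passed in the remaining 3 lists. For NADPH supply (12 tested, median -0.35), the smallest p values were those of the pentose phosphate enzymes Pgd (difference -0.78, limma adjusted p = 0.0751) and Taldo1 (-0.56, adjusted p = 0.0999). Pgd read 6778.3, 11036.8 and 8992.2 in A/J and 5100.7, 5504.4 and 4737.2 in DBA/2J, without overlap. For the NRF2 pathway and its other targets (19 tested, median -0.01) they were Fth1, the ferritin heavy chain (-0.36), and Cbr1, a carbonyl reductase (0.49). For metal handling and superoxide accessories (9 tested, median -0.38) they were Cp, ceruloplasmin (-0.73, adjusted p = 0.0596), and Mt3, a metallothionein (-0.83). At an unadjusted limma p under 0.05 there were 5, 3 and 3 genes in these lists. For glutathione turnover, thioredoxin-like proteins and selenoproteins there were 7, 3 and 4. Over all 6 lists this was 25 of the 93 tested, where 17.1% of all 13006 genes met that limit.

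The 17 dim member probe sets read 3.7 to 343.7 over the 6 arrays, and 7 genes were represented by them alone: Gsta2, Gsta3, Gsto2, Gstp3, Gstt4, Gpx2 and Gpx6. With no filter on dim probe sets, 0 of the 81 passed. The lowest adjusted p among the dim ones belonged to a probe set of Gsta3, at 40.7, 36.6 and 28.8 in A/J and 10.5, 12.5 and 7.4 in DBA/2J (difference -0.97, limma adjusted p = 0.102), and another dim probe set of Gsta3 gave -0.49. The dim difference furthest towards DBA/2J was that of a Prdx4 probe set, at 14.0, 67.9 and 16.4 in A/J and 74.3, 75.1 and 44.6 in DBA/2J, with overlap (difference 0.87, adjusted p = 0.472). No detection call was used, so whether such signals lie above background is unknown.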

How the data were processed

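Total RNA of pooled carotid bodies was amplified in repeated rounds of cDNA synthesis and transcription and hybridised to Affymetrix Mouse 430 2.0 arrays, per the labels' protocols and the series' design text. The deposited values are intensity signals on a linear scale, from software that the labels do not name. All arrays share a 2%-trimmed mean of 500.0, which shows global scaling before deposit by the authors, and medians were 163.6 to 183. They were used without further normalization. Oligo(dT) priming in each round favours the 3' end, so a gene's probe sets can differ.

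Values were taken as log2(signal + 16) without the 64 control probe sets, and the upper 60% by mean (27022) were fitted in R 4.3.3 with limma 3.58.1 (lmFit, eBayes with trend, 2-sided, no covariate). The probe set with the highest mean stood for a gene. Symbols came from GEO's platform annotation, updated through a RefSeq table (GRCm38.p6); 34754 of 34958 probe sets naming 1 gene matched. Full values are given for tested members with an unadjusted p under 0.05 and no overlap, and for the smallest p of each family. Other members are described more briefly, and some of them are also shown per array, outside this rule. Of each pathway list, up to 4 called genes are named, or the 2 smallest p where none was called. The fit was tested on simulated data. Members and lists were chosen with earlier results of these data known. Figures used matplotlib 3.10.9.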

Additional observations from a re-analysis of the deposited data

How the results depend on the processing

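The count of 0 member probe sets higher and 0 lower was unchanged with pseudocounts of 1 and 64, no filter, the upper 40% of probe sets, quantile normalization, scaling to one median, no intensity trend, and 1 probe set per gene adjusted over 13006 genes, the last chosen after seeing the data. Array weights gave 2 higher and 9 lower among 3007 calls (11.1% of probe sets), with DBA/2J array 1 weighted 3.68 and DBA/2J array 2 0.447, and the series' rule gave 1 and 3. Leaving out each array gave 0 higher and 0 to 4 lower, the 4 without DBA/2J array 2 (1351 calls in all, 5%). They were 2 probe sets of Sod2 and 1 each of Gsto1 and Gpx4. With A/J array 2 as the only A/J array, whose spread is then assumed to be that of DBA/2J, it was 0 of 63 calls.

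Of other redox genes, 1 rose and 4 fell. The counts were 2 and 15 with array weights and 2 and 11 by the series' rule, 0 rose with scaling to one median, 2 fell with no trend, and 0 and 0 passed without A/J arrays 1 and 3. Leaving out each array gave 0 to 2 higher and 0 to 5 lower: 0 and 0 without A/J array 1, 0 and 1 without A/J array 2, A/J array 3 or DBA/2J array 1, 0 and 2 without DBA/2J array 3, and 2 and 5 without DBA/2J array 2.

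Some titles share a number across strains. As a fixed replicate block, which leaves 1 residual degree of freedom, it gave 0 member calls and 0 and 0 other redox calls among 0 of all; as a random block 0, and 1 and 3. Deviations of arrays with the same number correlated at -0.26 and 0.04, and those of the other pairs across strains at -0.264 to 0.202. So few pairs cannot show whether arrays with the same number were handled together. The labels do not state what the number means.

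Of 234 values for the 13 genes given in full, 222 kept their direction and their side of the threshold, 9 newly passed and 3 reversed: Gsta4 to 0.0156 without DBA/2J array 3, and Prdx4 to 0.0013 with array weights and 0.0312 without A/J array 2. Leaving out each array gave -0.44 to 0.0156 for Gsta4 and -0.23 to 0.0312 for Prdx4. With 3 arrays per strain, the median SE of a member was 0.24.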
